A study of Mus musculus with 282 samples.

Results

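The genes described here are 39 interferon response and interferon receptor genes, measured in single mouse hematopoietic stem cells (HSCs). They were chosen by symbol and make up 39 of the 49671 Ensembl genes counted. They fall into 6 roles: 3 Ifitm genes, 8 transcription factors of the IRF and STAT families, 4 receptor chains, 13 antiviral effectors, 8 interferon-inducible GTPases and 3 genes of RNA sensing. Of these, 24 genes that interferon strongly induces in many cell types were also taken as a list, the inducible members.

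All 282 cells belonged to 1 group, HSCs sorted singly from the bone marrow of adult mice as LSK CD48-/loCD150+, where LSK cells carry Sca-1 and Kit and lack lineage markers. The animals were R26 rtTA/rtTA and Col1A1 H2B-GFP/H2B-GFP, which carry a doxycycline-controlled transactivator and a histone-GFP transgene under its control, and were not induced, so no cell had been treated. The series used 6 mice aged 12 to 22 weeks in 2 experiments, but the labels do not tie cells to mice. Cells carry a library number that begins with 29 or 32 and an HSC code, which together give 6 sets, named L32 HSC-2 to L32 HSC-5 for the 4 codes of series 32 and L29 HSC-3 and L29 HSC-4 for the 2 codes of series 29. Since the labels do not say what the codes stand for, sets are not known to be animals, and spread between sets may be technical.

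A well was kept with at least 100000 gene reads and 1000 genes, which left 232 cells with a median of 280096 gene reads (range 116009 to 1680714). The 6 sets in the order above held 22, 44, 38, 39, 46 and 43 kept cells. The set L29 HSC-4 was the outlying one, at a median of 4151 genes per cell, whereas medians in the rest were 5126 to 5686. The HSC markers Kit, Hlf, Ly6a, Mecom, Procr, Slamf1 and Tek were each in at least 10% of cells, at 12.9% (Tek) to 84.5% (Kit). None of 8 macrophage and monocyte or 7 neutrophil markers reached that share, nor did any of 6 T and NK cell markers. Of 6 plasmacytoid dendritic cell markers, Bst2, itself an interferon-induced gene, and Tcf4 did. Of 5 B cell markers Cd79b did (24.6%), and of 5 endothelium markers Emcn (28.4%) and Pecam1 (23.3%) did.

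Interferons are secreted antiviral cytokines. Type I interferons bind the chains IFNAR1 and IFNAR2 and signal through a complex with STAT2 and IRF9 that binds an interferon-stimulated response element (ISRE), whereas interferon gamma binds IFNGR1 and IFNGR2 and acts at a gamma-activated site (GAS). In mouse HSCs, interferons are known to drive dormant cells into cycle, and stem cells of several tissues are known to express some interferon-stimulated genes, the Ifitm genes among them, without infection.

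Promoter sequences were searched for both elements. Of the 39 members, 34 matched a RefSeq promoter (GRCm38.p6, from 250 bases before to 50 after the gene's start). The ISRE core, taken as 2 copies of GAAA with any 2 bases between them and searched on both strands with overlapping matches counted, was in 14 of 19 inducible members with a promoter (73.7%), in 4 of the 15 other members and in 3.99% of 27025 genes with a promoter. All 6 GTPases with a promoter held it, and none of the 4 receptor chains did. The GAS core TTCNNNGAA was in 7 of the 19 inducible members (36.8%), in 6 of the 15 other members (40%) and in 9.55% of all genes. Of 26 further inducible genes with a promoter, 9 held the ISRE core (34.6%) and 8 the GAS core (30.8%). These counts describe letters in a window and not bound sites. The 5 promoters printed here, 5′ to 3′ on the strand of the gene with ISRE cores in capitals, are those of the effectors Ifit1 and Isg15 and the GTPases Gbp2 and Irgm1, which were scattered over cells, and of Ifitm3, which was in nearly every cell.
Ifit1, chr19:34640639-34640938, plus strand: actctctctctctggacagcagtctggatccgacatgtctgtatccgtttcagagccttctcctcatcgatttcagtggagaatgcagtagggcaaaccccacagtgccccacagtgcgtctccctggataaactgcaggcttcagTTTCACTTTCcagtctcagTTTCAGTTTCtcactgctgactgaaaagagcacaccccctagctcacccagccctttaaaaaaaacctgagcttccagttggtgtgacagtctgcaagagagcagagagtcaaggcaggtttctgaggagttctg
Isg15, chr4:156200769-156201068, minus strand: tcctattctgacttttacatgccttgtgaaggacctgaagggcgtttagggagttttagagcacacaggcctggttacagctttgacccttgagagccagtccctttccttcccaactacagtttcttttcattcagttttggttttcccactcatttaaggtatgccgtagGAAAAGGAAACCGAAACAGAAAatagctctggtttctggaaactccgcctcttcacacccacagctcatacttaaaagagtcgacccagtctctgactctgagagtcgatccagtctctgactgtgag
Gbp2, chr3:142620413-142620712, plus strand: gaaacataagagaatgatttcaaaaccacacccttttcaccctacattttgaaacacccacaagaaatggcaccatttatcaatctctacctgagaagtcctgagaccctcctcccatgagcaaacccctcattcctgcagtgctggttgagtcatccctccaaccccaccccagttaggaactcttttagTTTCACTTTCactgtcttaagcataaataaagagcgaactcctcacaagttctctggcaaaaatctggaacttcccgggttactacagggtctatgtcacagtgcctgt
Irgm1, chr11:48871371-48871670, minus strand: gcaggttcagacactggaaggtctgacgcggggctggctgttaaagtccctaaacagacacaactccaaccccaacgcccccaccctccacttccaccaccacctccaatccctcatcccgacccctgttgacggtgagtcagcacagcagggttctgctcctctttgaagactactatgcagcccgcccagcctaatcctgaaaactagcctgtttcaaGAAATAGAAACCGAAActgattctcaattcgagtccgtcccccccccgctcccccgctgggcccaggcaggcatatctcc
Ifitm3, chr7:141010695-141010994, minus strand: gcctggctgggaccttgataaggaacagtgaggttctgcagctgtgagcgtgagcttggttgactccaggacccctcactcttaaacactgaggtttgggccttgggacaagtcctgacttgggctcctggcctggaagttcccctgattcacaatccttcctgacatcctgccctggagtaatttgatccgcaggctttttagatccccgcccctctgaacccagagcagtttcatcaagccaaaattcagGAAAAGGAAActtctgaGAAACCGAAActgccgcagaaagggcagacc
Isg15 held 3 overlapping cores, from 78 to 56 bases before the start, where the capitals run together. Ifit1 held 2 cores on the opposite strand, between 104 and 75 bases before the start. In Ifitm3 both cores lay after the annotated start, Ifitm2 held 1 core from 46 to 36 bases before it, and Ifitm1 held none. The only cores of the inducible members Ddx58 and Ifih1 also lay after the start, whereas those of the other inducible members lay before it.

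Detection split the 39 members into a constant and a scattered part. Detection means at least 10 CPM, the gene's reads scaled to a common total of all gene reads in that cell, which is 2.80 reads in the median kept cell. At that level 35 of 39 members (89.7%) were in at least 10% of cells, against 9689 of all 49671 genes (19.5%). Only 5 members were in at least 50% of cells, namely Ifitm1, Ifitm2, Ifitm3, Bst2 and Gbp7. The median member was in 30.2% of cells, beside 27.6% over the 9689 genes in at least 10% of cells.

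**Figure D1:**
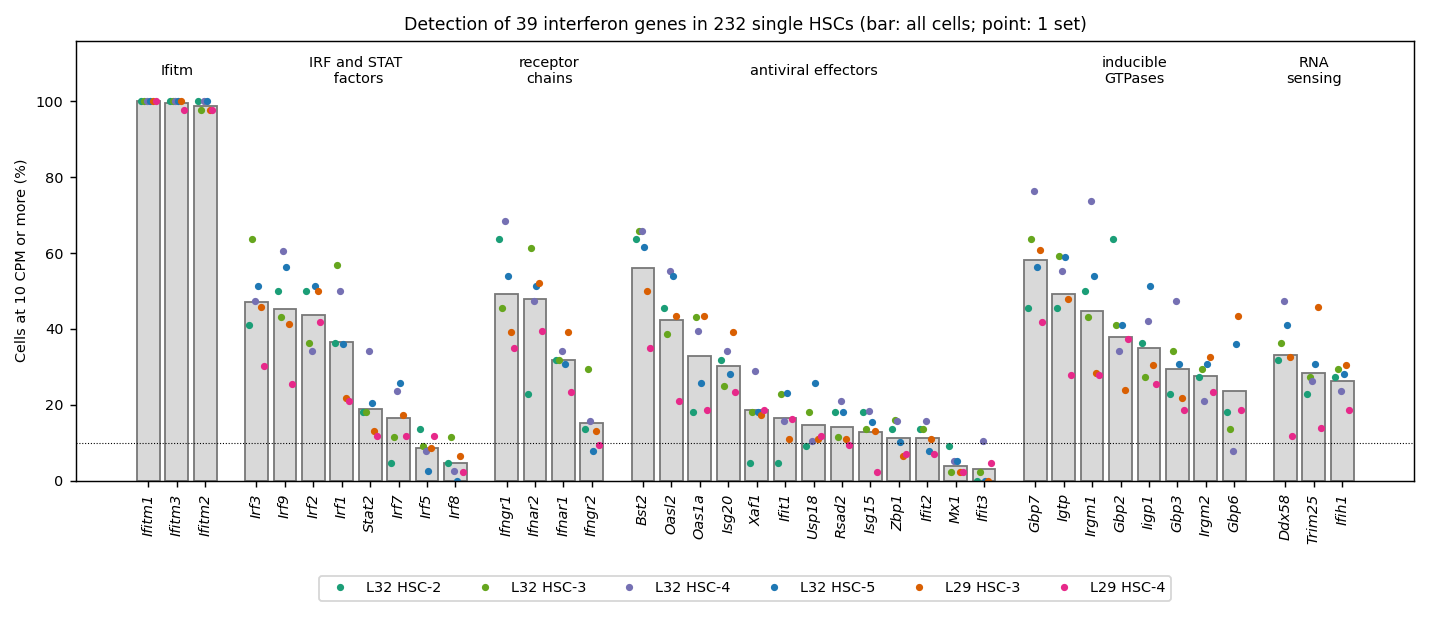
Share of the 232 kept cells in which each of the 39 members was at 10 CPM or more, grouped by role. Bars give all cells, points give the 6 sets, and the dotted line marks 10% of cells. The 3 Ifitm genes stand near 100% in every set, whereas the highest other bar is Gbp7 at 58.2%.

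The Ifitm genes encode small membrane proteins that hinder virus entry. Ifitm1 (chr7:140967221-140969825 in mm10) was in 232 of 232 cells, with a lowest value of 135, a median of 1918 and a highest value of 10079.7 CPM. Ifitm3 was in 231 cells, with a lowest value of 0, a median of 1242 and a highest value of 8322 CPM. Ifitm2 was in 229 cells, with a lowest value of 0, a median of 315 and a highest value of 1428 CPM. Mean levels were 2249 ± 546 CPM for Ifitm1, 1416 ± 213 CPM for Ifitm3 and 350 ± 56.2 CPM for Ifitm2 (mean over cells, SD over 6 sets), with overlap between the sets of both series. Per kilobase of gene model, Ifitm3 (2089 RPKM) and Ifitm1 (2056 RPKM) ranked 27 and 28 among all genes and Ifitm2 (534 RPKM) ranked 142. The other 36 members had levels of 1.05 (Irf8) to 140 RPKM (Bst2). Of the possible 50-base reads of Ifitm2, 48.5% also occur in other genes, mainly predicted relatives, against 10.0% for Ifitm3 and 5.02% for Ifitm1, so the level of Ifitm2 is the least certain.

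Receptor chains were present at modest levels. Ifngr1, the ligand-binding chain for interferon gamma, was in 49.1% ± 13.4 of cells (SD over 6 sets) at a mean of 67.8 RPKM. Its signalling partner Ifngr2 was in 15.1% ± 7.79 of cells at 11.5 RPKM. The type I chains Ifnar2 and Ifnar1 were in 47.8% ± 13.3 and 31.9% ± 5.17 of cells, at 28.5 and 19.7 RPKM. Part of Ifnar2 (7.89% of its 50-base stretches) is shared with an overlapping predicted gene on the same strand. Ifnlr1, the receptor chain for type III interferons, was in 0.862% of cells.

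Among the transcription factors, 6 of 8 reached 10% of cells. Irf3, which acts downstream of nucleic acid sensors, was in 47.0% ± 11.1, and Irf9, the DNA-binding part of the type I complex, was in 45.3% ± 12.5 (SD over 6 sets). Irf2, known as a counterpart of Irf1 at the same sites, was in 43.5% ± 7.53, and Irf1 itself was in 36.6% ± 14.5. Stat2 was in 19.0% ± 8.05 and Irf7, the interferon-induced amplifier of type I interferon production, in 16.4% ± 8.07 of cells. Irf5 (8.62%) and Irf8 (4.74%), both known from myeloid and lymphoid cells, stayed under 10%. Exons of Irf1, Irf3, Irf5 and Irf7 overlap a gene on the opposite strand and those of Irf9 overlap Rnf31 on the same strand. Strand use in counting is not stated, so these 5 counts are uncertain.

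Antiviral effectors had the lowest median share of the 6 roles, 14.7% of cells. Bst2 (tetherin, which holds budding viruses at the cell surface) led at 56.0% ± 12.3 of cells, followed by Oasl2, a relative of the oligoadenylate synthetases, at 42.2% ± 12.5. Oas1a, an oligoadenylate synthetase that activates RNase L, was in 32.8% ± 12.0, and Isg20, an exonuclease, in 30.2% ± 5.96 of cells. The apoptosis-linked Xaf1 was in 18.5%, Ifit1, which binds viral RNA, in 16.4%, Usp18 (which removes ISG15 and restrains receptor signalling) in 14.7% and Rsad2 (viperin) in 14.2% of cells. Isg15, a ubiquitin-like modifier, was in 12.9%, and Ifit2 and the nucleic acid sensor Zbp1 were in 11.2% each. Mx1 (3.88%, 9 cells) and Ifit3 (3.02%, 7 cells) were the rarest. When present, several of these were high: in the cells with the gene, the median was 353 CPM for Ifit1, 416 CPM for Ifit2 and 471 CPM for Mx1, against 40.9 CPM for Isg15. Oas1a shares 57.6% of its 50-base stretches with Oas1 relatives and Ifit3 shares 51.2% with Ifit3b, so reads of these copies could not be told apart.

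All 8 interferon-inducible GTPases, a class that acts at the vacuoles of intracellular pathogens, were in at least 10% of cells. Gbp7 was in 58.2% ± 12.6, Igtp in 49.1% ± 11.8, Irgm1 in 44.8% ± 17.3 and Gbp2 in 37.9% ± 13.1 of cells. Iigp1 was in 34.9% ± 9.85, Gbp3 in 29.3% ± 10.6, Irgm2 in 27.6% ± 4.48 and Gbp6 in 23.7% ± 13.7 of cells (SD over 6 sets for all 8). Igtp, at 91.5 RPKM, was second only to Bst2 outside the Ifitm genes. Exons of Igtp and Irgm2 overlap on the same strand, and Gbp6 shares 70.7% of its 50-base stretches with other genes. The 3 genes of RNA sensing were at similar shares, with Ddx58 (RIG-I) in 33.2% ± 12.2, Trim25, which activates RIG-I, in 28.4% ± 10.5 and Ifih1 (MDA5) in 26.3% ± 4.43 of cells.

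The ligands were not detectable in nearly all cells. None of 10 interferon genes reached 10% of cells, 8 of them (4 Ifna genes, Ifnb1, Ifng, Ifne and Ifnl3) were at 10 CPM in 0 of 232 cells, which allows a share of cells at that level of up to 1.29% (3 cells), and Ifnk and Ifnl2 were in 1 cell each (0.431%). Of 16 other genes of signalling and its control, 13 reached 10%. These were led by the phosphatase Ptpn6 (75.0%), the receptor-associated kinase Jak1 (73.3%) and Stat3 (60.8%). Of 39 further inducible genes, 32 reached 10%, led by Ly6e (98.7%), the immunoproteasome subunit Psmb8 (93.5%), the GTPase Tgtp2 (81.5%) and Lgals3bp (80.6%).

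Wells with hardly any cellular RNA measure how much of a member could be free RNA or carry-over. Such near-empty wells, which failed the filter and held fewer gene reads than reads of the added ERCC spike-in RNAs, numbered 22 in L32 HSC-2 and 16 in L32 HSC-3. Kept cells of these 2 sets had 13.7 gene reads per spike-in read, against 0.121 in near-empty wells, which is 0.885% of the amount in kept cells if all wells got the same spike-in. CPM, which compares the make-up of reads, was lower in kept cells for Ifitm1 (2608 CPM, against 4275 CPM in near-empty wells) and for 9 other members. Per 1000 spike-in reads, Ifitm1 had 35.7 reads in kept cells and 0.518 in near-empty wells, so near-empty wells held 1.45% of the amount. That share was 1.51% for Ifitm3 and 1.15% for Ifitm2. Carried into an average kept cell of the same sets, the amounts in near-empty wells would read as 37.8 CPM of Ifitm1, 20.2 CPM of Ifitm3 and 3.75 CPM of Ifitm2. All 66 kept cells of these sets were above that for Ifitm1 and for Ifitm3, and 65 were for Ifitm2. Ifitm1 reads were in 13 of the 38 near-empty wells.

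Over all members, the median share in near-empty wells was 0.119% of the amount in kept cells, beside 0.200% over the genes in at least 10% of cells. The highest shares, above those of the Ifitm genes, were those of Irf8 (32.8%), Ifngr2 (7.22%), Ifit3 (7.01%) and Ifih1 (6.53%). Each rested on few wells. Irf8 reads were in 2 of the 38 near-empty wells, Ifngr2 reads in 3 and Ifih1 reads in 6. Ifit3 had only 1 read, in 1 well. Among members, and averaged over all 38 near-empty wells, only Ifitm1 and Ifitm3 would pass 10 CPM in an average kept cell. For members with reads in few wells, such an average does not bound the amount in a single well. The other 4 sets had no near-empty wells, so background was not measured there.

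**Figure D2:**
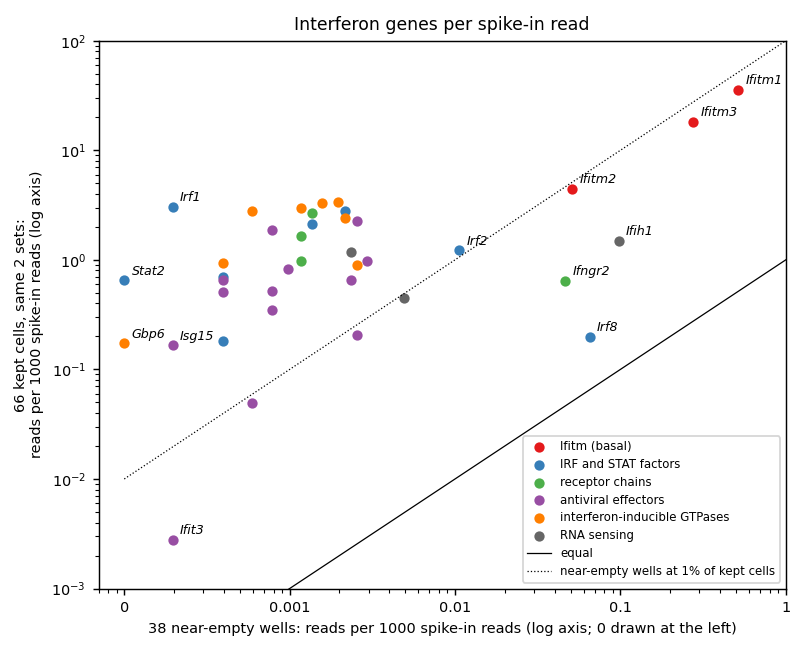
Reads of each of the 39 members per 1000 spike-in reads in the 66 kept cells (y axis, log) and the 38 near-empty wells (x axis, log, with 0 drawn at the left edge), both from the codes HSC-2 and HSC-3 of series 32. Every member lies above the solid line of equal amounts, and Ifitm1 lies close to the dotted line at which near-empty wells hold 1% of the amount in kept cells.

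Nearly every cell carried some inducible members, and few carried many. The median cell had 6 of the 24 inducible members at 10 CPM, with a range of 0 to 22. At least 5 were in 158 of 232 cells, or 68.1% (Clopper-Pearson 95% interval 61.7% to 74.1%, counting error only) and 68.1% ± 16.4 as the mean over 6 sets (SD). The share was 63.6% in L32 HSC-2, 75.0% in L32 HSC-3, 81.6% in L32 HSC-4, 79.5% in L32 HSC-5, 71.7% in L29 HSC-3 and 37.2% in L29 HSC-4. L29 HSC-4 was thus the low set, with a median of 3 against 6 to 7.5 elsewhere, and it was also the set with the fewest genes per cell and with the highest mitochondrial share of gene reads, 6.66% against 3.28% to 3.73% in the other sets. The part of these in the low count was not tested, apart from depth. Thinning each cell to 100000 reads, with detection at 1 read, left that set lowest, at 39.5% against 72.7% to 82.1% in the other 5 sets. The number of cells just inside and outside the limit of 5 was large, with 52 cells at 5 or 6 members and 45 cells at 3 or 4.

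**Figure D3:**
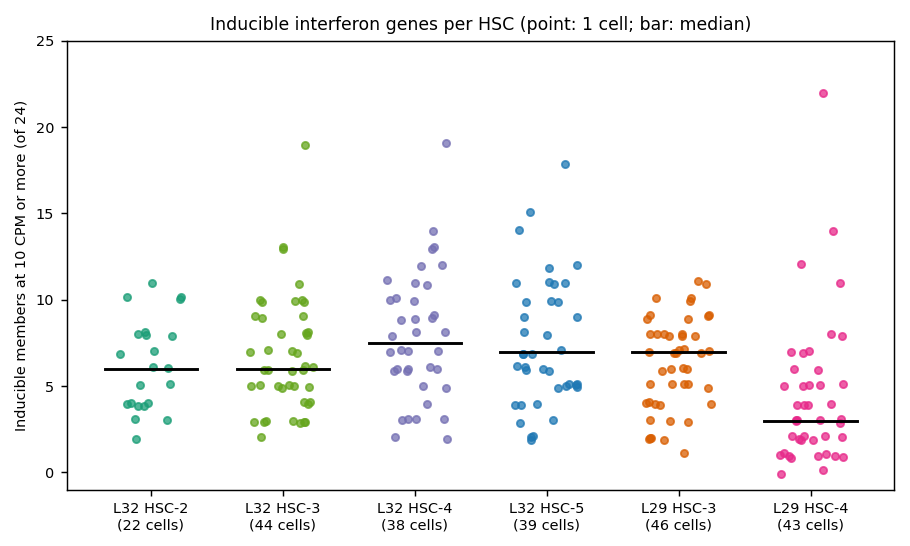
Number of the 24 inducible members at 10 CPM or more in each of the 232 kept cells, by set. Each point is 1 cell, shifted slightly at random in both directions, and bars are medians. Medians lie at 6 to 7.5 except in L29 HSC-4, at 3, where 1 cell stands at 22.

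At the upper end, 5 cells had 15 or more inducible members, and 12 cells had 12 to 14. These 5 cells were 1 each in L32 HSC-3, L32 HSC-4 and L29 HSC-4 and 2 in L32 HSC-5, with 19, 19, 22, 18 and 15 inducible members. They also had 21 to 32 of the 39 further inducible genes, which did not enter the choice, against a median of 15 over all cells. The cell of L32 HSC-3 differed from the rest in RNA content: it had 0.468 gene reads per spike-in read against a set median of 17.4, yet 8718 genes, and it was the only kept cell with fewer gene reads than spike-in reads. Without it, 68.0% of cells had at least 5 inducible members, against 68.1% with it.

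The cell of L29 HSC-4 with 22 inducible members stood far above all others in amount. Its inducible members summed to 35025 CPM, or 3.50% of its gene reads, against a median of 1616 CPM over all cells and a second-highest value of 11589.7 CPM. It held the highest value of all 232 cells for 11 of the 24 genes. Ifit1 reached 4693 CPM in it, against 1470 CPM in the next cell, and Rsad2 reached 3848 CPM, against 926 CPM in the next. Mx1 was at 1767 CPM, Ifit2 at 1654 CPM and Irf7 at 1309 CPM. Of the summed Ifit3 CPM over all cells, 66.1% came from this cell alone, and without it mean levels were 2.84 in place of 8.34 CPM for Ifit3, 12.3 in place of 19.9 CPM for Mx1 and 63.2 in place of 83.2 CPM for Ifit1. Isg15 had only 1 read in it (3.45 CPM) and Zbp1 had 0. Ifitm3, at 4331 CPM, ranked 4 of all cells, whereas Ifitm1, at 1736 CPM, ranked 133. Outside the members, it had 7342 CPM of Ifit1bl1, a copy of Ifit1, 2460 CPM of the nucleotide kinase Cmpk2 and 1650 CPM of the chemokine Cxcl10, which passed 10 CPM in no other cell. It had 5 of 8 HSC markers examined, 0 markers of macrophages, neutrophils, B cells, T and NK cells or endothelium at 10 CPM, and of the plasmacytoid dendritic cell markers Bst2 and Tcf4. Of the other 4 cells, the cell of L32 HSC-3 had 1 marker each of B cells, T and NK cells (388 CPM summed over that list) and endothelium, and the cell of L32 HSC-4 had 2 B cell markers (176 CPM summed). All 4 also had plasmacytoid dendritic cell markers. The cells of L32 HSC-3 and L32 HSC-4 had 2 each (94.8 and 419 CPM summed). The cells of L32 HSC-5 had 2 and 1 (1648 and 118 CPM summed), beside 872 CPM in the cell of L29 HSC-4.

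**Figure D4:**
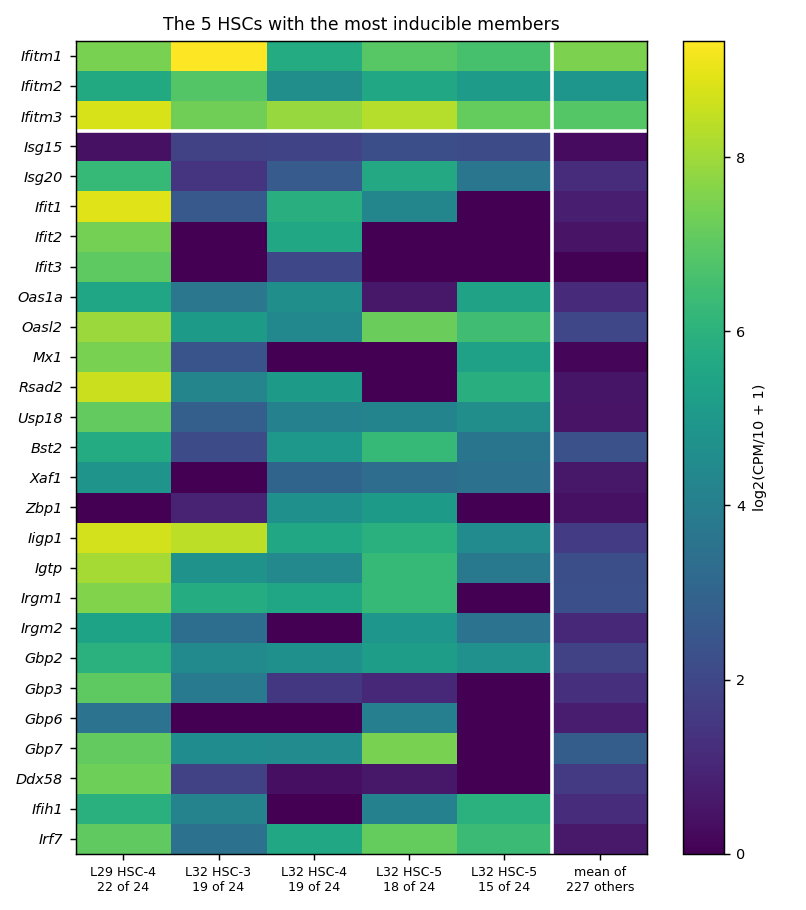
Values of the 3 Ifitm genes (top) and the 24 inducible members in the 5 cells with the most inducible members, and their mean in the other 227 cells (right column), as log2(CPM/10 + 1). The cell of L29 HSC-4 (left) is the brightest for Ifit1, Rsad2 and Mx1 and dark for Isg15 and Zbp1.

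Inducible members tended to be found in the same cells. Co-variation was measured within each set as a Spearman correlation between 2 genes across cells, with the ranks of gene reads and detected genes and the plate taken out. It was averaged over the 6 sets as Fisher z, weighted by the number of cells in each set, and turned back into rho. Cells of a set share library preparation and plate, so these values are a description. Of the 231 pairs of the 22 inducible members in at least 10% of cells, 202 (87.4%) had a positive mean rho, with a median of 0.087. Over all pairs of the 9689 genes in at least 10% of cells, 51.1% were positive and the median was 0.0021. The median over inducible pairs was 0.10 in L32 HSC-2, 0.063 in L32 HSC-3, 0.068 in L32 HSC-4, 0.11 in L32 HSC-5, 0.026 in L29 HSC-3 and 0.14 in L29 HSC-4, so it was positive in every set. Without the 5 cells with the most inducible members the median was 0.052, with 185 of 231 pairs positive. Those cells were picked by their count of inducible members, and leaving out the top of that count tends to lower rho in any case. The drop thus does not measure how much of the co-variation came from few cells. Single correlations were mostly weak. The Mantel-Haenszel odds ratio of joint detection over sets was above 1 for 207 of 231 pairs and above 3 for 18, with a median of 1.57. Without those 5 cells it was above 1 for 178 pairs, with a median of 1.37, and without the well with fewer gene than spike-in reads the median rho was 0.082.

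Some of the highest values outside shared reads were between the factors Irf7 or Irf9 and effectors. Irf7 and Oasl2 had a mean rho of 0.38 (positive in 6 of 6 sets), and Oasl2 was in 30 of the 38 cells with Irf7 (78.9%) and in 35.1% of the other cells, an odds ratio of 5.65. Without the 5 cells above, that ratio was 4.71. Ifit1 and Oasl2, both effectors, had a mean rho of 0.30 (6 of 6 sets) and an odds ratio of 5.78, and Irf7 and Irf9 had 0.29 (6 of 6 sets) and 6.06. Irf9 varied with Isg15 at 0.33 (5 of 6 sets) and with Xaf1 at 0.31 (6 of 6 sets). Among the GTPases, Iigp1 and Irgm2 had a mean rho of 0.31 (6 of 6 sets). The highest value, 0.56 for Igtp and Irgm2, belongs to genes with overlapping exons and shared reads and was 0.40 after thinning. Ifitm1 and Ifitm3, which are shared by nearly all cells, varied together in level at 0.36 (6 of 6 sets). Of its 50-base stretches, Ifitm1 shares 5.02% with Ifitm3 or a predicted gene, and the part of shared reads in that value was not tested.

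Pairs of a receptor chain with an effector were mostly negative by rho, but closer to even by joint detection. Of 44 such pairs, 10 had a positive mean rho, with a median rho of -0.027. The odds ratio was above 1 for 19 of the 44, with a median of 0.934. Of 32 pairs of a receptor chain with a GTPase, 13 had a positive mean rho and 17 an odds ratio above 1. The 6 pairs of receptor chains with each other had a positive mean rho in 3. By joint detection, the odds ratio of those 6 pairs was above 1 in 6, with a median of 1.31. Ifnar1 and Ifnar2, which form 1 receptor, had a mean rho of -0.04 and an odds ratio of 1.01, and Ifngr1 and Ifngr2 had a mean rho near 0 and an odds ratio of 1.53.

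**Figure D5:**
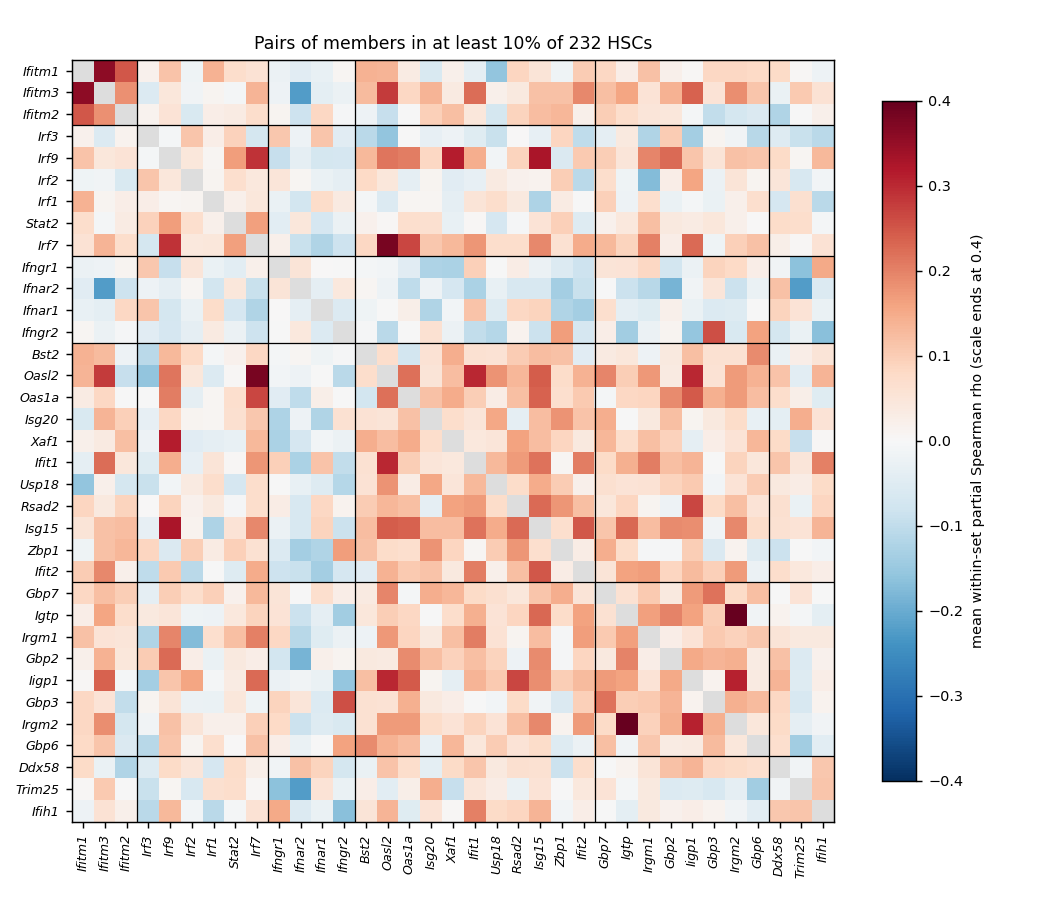
Mean within-set partial Spearman rho for every pair of the 35 members in at least 10% of cells, ordered by role (lines). Colours run to 0.4, and 1 pair, Igtp and Irgm2 at 0.56, lies beyond. Effector and GTPase blocks are mostly red, and the receptor rows are mixed.

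A summed score set single genes against the programme as a whole. The score was the mean log2(CPM/10 + 1) over the inducible members, with the gene itself left out, and 49.6% of 9689 genes had a positive mean rho with it. All 22 inducible members did, with a median of 0.20, led by Oasl2 (0.38), Irgm2 (0.35) and Isg15 (0.32). The score set against Irgm2 still held Igtp, whose exons overlap those of Irgm2, and the part of shared reads in that value was not tested. Irf9, which was not in the score, had 0.34 (6 of 6 sets). Of the Ifitm genes, Ifitm3 had 0.29 (5 of 6 sets), Ifitm1 0.11 (3 of 6) and Ifitm2 -0.02 (3 of 6), so the constant genes differed among themselves. Irf3 had -0.17 and was negative in 6 of 6 sets, and Irf1 had -0.04. Of the further inducible genes in at least 10% of cells, 32 of 32 were positive, with a median of 0.13.

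The 10 genes outside the members with the highest mean rho with the score were Oas1g (0.39), Tgtp1 (0.33), Gstk1 (0.30), Rtp4 (0.29), Gvin1 (0.29), Hspa13 (0.29), Tgtp2 (0.27), Serinc1 (0.25), Crebrf (0.25) and Prorsd1 (0.24), each positive in 6 of 6 sets. Tgtp1, Rtp4 and Tgtp2 were on the list of further inducible genes, Gvin1 is a very large interferon-inducible GTPase, and Oas1g shares sequence with the member Oas1a.

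The 2 library series were compared on counts summed over the kept cells of each set, 4 sets of L32 against 2 sets of L29, with edgeR's quasi-likelihood test and Benjamini-Hochberg adjustment over 16476 genes. No gene passed an adjusted p of 0.05 (0 of 16476 genes, 0%, and 0 of 39 members), whereas 1433 genes (8.7%) and 3 of 39 members had an unadjusted p under 0.05. DESeq2 called 410 of 16476 genes, with 2 of 39 members, Irf1 and Isg20, among them. CPM values below are of summed counts after TMM scaling, so deep cells weigh more than in the means over cells given above. The deepest kept cells held 1372561 to 1680714 gene reads in L32 sets and at most 398812 in L29 sets. As a mean over cells, Irf1 was at 188 to 197 CPM in L32 sets and at 71.3 and 85.4 CPM in L29 sets. Irf1 averaged 212 CPM in L32 sets (171 to 285) and 85.0 CPM in L29 sets (84.1 and 85.9), a log2 difference of 1.32 ± 0.28 (SE; edgeR adjusted p = 0.351, DESeq2 adjusted p = 0.00169). Isg20 averaged 39.4 CPM in L32 sets (30.2 to 51.5) and 94.4 CPM in L29 sets (88.0 and 100.7), a log2 difference of -1.26 ± 0.34 (edgeR adjusted p = 0.407, DESeq2 adjusted p = 0.034). Irf9 averaged 240 CPM in L32 sets (135 to 327) and 125 CPM in L29 sets (124 and 126), a log2 difference of 0.94 ± 0.37 (edgeR adjusted p = 0.551). In scaled CPM of summed counts, sets of the series did not overlap for these 3 genes, Ifnar1, Gbp7, Gbp6 and Stat2. These were 7 of 39 members, beside 21.9% of all genes tested. By the mean over cells, sets overlapped for Ifnar1 (93.9 CPM in L32 HSC-2, 103 CPM in L29 HSC-3 and 80.5 CPM in L29 HSC-4). They also overlapped for Gbp6 (24.9 CPM in L32 HSC-5 and 23.6 CPM in L29 HSC-4). Ifitm1, Ifitm2 and Ifitm3 had log2 differences of 0.17 ± 0.28, -0.28 ± 0.20 and -0.16 ± 0.14, with overlapping sets. Over all 39 members the median log2 difference was 0.29 with 26 positive, beside a median of 0.07 over all genes tested, which was -0.10 without a filter on low counts. That median rested on which L29 set was used: it was 0.03 without L29 HSC-3 and 0.69 without L29 HSC-4. What separates the series beyond library numbers is not given, so library preparation and biology cannot be told apart.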

How the data were processed

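Per the labels' protocols, cDNA of each sorted cell was made from poly(A) RNA by template switching, went through 22 cycles of PCR, and was tagmented from 700 pg. No molecular identifiers were used, so intervals and floors cover counting error only. What the authors deposited is a single table of read counts, genes by cells. Alignment tools named in the submitters' processing notes are GSNAP and featureCounts 1.6.2, with build mm10; Ensembl release 87 is named by the table. Strand and reads on several loci: handling not given in the sources used here.

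The 39 members, the gene lists, the thresholds and the tests were chosen with earlier results of these data known. Of 49671 Ensembl identifiers, 49326 matched a symbol. The 92 spike-in rows, with 11.7% of all reads, and the row of the transgene were left out of totals and of every test. CPM and RPKM (CPM per kilobase of the table's gene length) were computed from the deposited counts. No 2 cells had identical counts, and no doublet caller was run on singly sorted wells. For a gene in 0 cells, a share of up to 3 cells remains allowed. Series were compared with edgeR 4.0.16 (filterByExpr, TMM) in R 4.3.3, with DESeq2 1.42.0 and limma 3.58.1 as alternatives. The scripts were tested on simulated data. All members were accounted for; those in at least 10% of cells, the 4 most often detected genes of each further list and the 10 genes most like the inducible score were named, as were some rarer members and single-cell values chosen after they were seen. Genes without a name and predicted genes were not named, and a few named by this rule are left out here. Other settings tried were detection at 1 and 50 CPM, thinning to 100000 reads, a stricter cell filter (222 cells), leaving out each set, correlations without covariates, other scalings, filters and tests, and a block on the HSC code. P-values rest on the spread between these 6 sets, which may be technical.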

Additional observations from a re-analysis of the deposited data

Results flagged for a closer look

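With 6 sets per quantity, a set was singled out when its gap to the nearest other set exceeded 0.625 of the whole range. Of 82 quantities tested this picked 7. For normal values chance alone picks about 1 in 20, but these shares, means, medians and highest values need not be normal. Their chance rate was not tested. L29 HSC-4, the set with the fewest genes per cell, was low in 3 of them: Ifitm3 was in 97.7% of its cells (all but 1 cell of 43) against 100% in the other 5 sets, Isg15 in 2.33% against 13.0% to 18.4%, and its median number of inducible members per cell was 3 against 6 to 7.5. The same set held the cell with the highest summed inducible CPM, 35025 against highest cells of 3096 to 11589.7 in the other sets. Ifngr2 was in 29.5% of cells of L32 HSC-3 against 7.69% to 15.8% elsewhere. Near-empty wells of that set and of L32 HSC-2 together had 7.22% of the amount of Ifngr2 in kept cells of these sets. Those reads came from 3 of 38 wells. Averaged over all 38 wells, the amount would read as 3.40 CPM in an average kept cell, beside the detection limit of 10 CPM. An average over wells mostly without Ifngr2 reads does not bound the amount in a single well. The part of carry-over in this share was not tested. In L32 HSC-2, Ifngr2 was in 13.6% of cells. Mean CPM of Zbp1 was 6.25 in L29 HSC-3 against 19.6 to 22.6 elsewhere. Mean CPM of Iigp1 was 429 in L32 HSC-5 against 129 to 204 elsewhere, where 1 cell of that set stood at 8519.6 CPM and the set mean without it was 216 CPM. After thinning to 100000 reads the median number of inducible members stayed lowest in L29 HSC-4, at 4 against 6.5 to 8.5. For the other differences the part of depth, and for all of them that of library or plate, was not tested.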

How the results depend on the processing

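The number of members in at least 10% of cells (35) was 36 at 1 CPM, 33 at 50 CPM and 35 under the other alternatives tried. The share of cells with at least 5 inducible members (68.1%) was 78.0% at 1 CPM, 58.6% at 50 CPM, 72.0% after thinning, 67.6% under the stricter cell filter, 65.5% to 75.1% when each set was left out, 67.4% without the 5 cells with the most inducible members and 68.0% without the kept well with fewer gene than spike-in reads. The median rho over inducible pairs (0.087) was 0.077 to 0.10 when each set was left out, 0.090 after thinning, 0.10 without covariates, 0.082 without that well and 0.052 without those 5 cells, the last 2 settings being chosen after seeing the data. Between L32 and L29, edgeR called 0 genes and DESeq2 called 410 of 16476 genes and 2 of 39 members. Limma on mean log values called 60 genes. Without a filter on low counts edgeR called 2 genes, and with the stricter cell filter 1 gene. These last 3 settings called 0 members. The cause of these differences was not tested. With the HSC code as replicate block in the 4 sets of codes HSC-3 and HSC-4, 0 genes were called. Same-coded sets did not deviate together across genes (r = 0.02). That value compares only 1 difference between codes in each series, so it cannot decide whether the code pairs the sets. Leaving out each set gave 0 genes throughout. Irf1 kept a positive log2 difference (1.07 to 1.40, adjusted p 0.00169 to 0.829) and Irf9 too (0.48 to 1.13, adjusted p 0.194 to 0.972), the lowest value with the block, while Isg20 ranged from -1.57 to -0.28 (adjusted p 0.034 to 0.838), the smallest with limma on mean log values. These results kept their sign, whereas the median log2 difference over all genes tested (0.07) was -0.10 without a filter on low counts. Depth limits what absence means: 10 CPM is 2.80 reads in the median cell.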
